A study of Mus musculus and Homo sapiens with 22 samples.

Results

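The broad PROX1 peaks of mouse liver were the intervals of at least 2000 bp, from start to end, in the peak list of that tissue. Of the 50159 liver peaks, 49427 lay on chromosomes 1 to 19, and 1484 of these (3.00%) were broad. They were chosen by a measured value, the width that the authors' peak caller gave each interval. Width, peak area and the caller's p-value at the summit (the position of strongest signal in a peak) come from the same readout, so they describe these peaks below and are not tested. All coordinates are mm10.

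PROX1 is a homeobox transcription factor of hepatocytes, where it acts as a repressor and as a partner of nuclear receptors, and it is also known from lymphatic endothelium and the lens. In CUT&RUN an antibody brings a nuclease to the chromatin that a protein occupies, and the released fragments pile up over the bound positions. A wide interval forms where signal stays above the caller's limit over neighbouring positions, or where intervals that lie close together are joined.

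The liver samples came from untreated C57BL/6J mice of 2 to 3 months and were stained with an antibody against Prox1 (5 samples) or with IgG (5 samples), so they measured the factor that the tissue makes itself. The labels call the cell type hepatocyte, while the nuclei were taken from whole liver. The comparison tissue was primary mouse embryonic fibroblasts (MEFs) of C57BL/6N embryos at E13.5. These cells carried lentiviral rtTA and a tetO-driven FLAG-tagged Prox1, received 2 µg/ml doxycycline for 2 days, and were stained with a FLAG antibody (3 samples) or IgG (3 samples). Hep3B, an established hepatocellular carcinoma line, carried doxycycline-inducible FLAG-tagged PROX1 after puromycin selection, was induced for 2 days, and was stained in the same way (3 samples each). All IgG samples carried the same genotype and treatment as their antibody samples. Tissue, antibody and the origin of the factor differed together between liver and MEFs and cannot be told apart.

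Each list pooled the antibody samples of its group. No depth per sample and no spread between replicates was available, and p-values describe the lists rather than animals or cultures. Neighbouring peaks are not independent, so these p-values are too small if peaks of a locus behave alike. The liver list started at a peak area of 500 and a summit −log10 q of 4.03, and the MEF list of 40531 peaks started at an area of 200 and a −log10 q of 1.16.

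The sequences around several summits show what lay under the tops of broad liver peaks. Each is the 200 bp centred on a summit, read from the GRCm38.p6 RefSeq genome on the plus strand, with matches to AGGTCA (a nuclear receptor half-site), TTGCAA (the core of a C/EBP site), CGCCCC (a GC box of SP and KLF factors) and CACGTG (an E-box), on either strand, in capitals. Windows that touched an annotated exon were not used. The Fgb window (chr3:83050760-83050959, upstream of the fibrinogen beta chain gene, intergenic) had the strongest summit p-value among usable peaks nearest to a gene of the lists described below. It held an AGGTCA match.
Fgb: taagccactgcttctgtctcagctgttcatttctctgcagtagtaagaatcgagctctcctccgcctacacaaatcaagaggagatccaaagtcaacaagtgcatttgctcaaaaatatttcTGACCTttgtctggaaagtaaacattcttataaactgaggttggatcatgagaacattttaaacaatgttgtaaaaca

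The next windows had the strongest summit p-values among such peaks near list genes that held TTGCAA, a motif found more often under broad than under narrower summits. They lay in an intron of Acaca (chr11:84146132-84146331), which encodes acetyl-CoA carboxylase, and upstream of Mat1a (chr14:41096649-41096848), which encodes a methionine adenosyltransferase.
Acaca: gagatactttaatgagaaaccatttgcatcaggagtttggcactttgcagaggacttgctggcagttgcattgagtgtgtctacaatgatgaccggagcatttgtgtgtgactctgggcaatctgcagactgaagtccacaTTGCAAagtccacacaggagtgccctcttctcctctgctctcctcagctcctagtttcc
Mat1a: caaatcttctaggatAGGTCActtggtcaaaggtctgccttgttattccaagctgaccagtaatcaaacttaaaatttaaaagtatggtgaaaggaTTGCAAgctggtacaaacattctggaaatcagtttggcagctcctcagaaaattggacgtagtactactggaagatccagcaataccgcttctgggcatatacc

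The remaining windows are pairs from broad liver peaks that a MEF peak met away from the liver summit, an arrangement counted below. For Socs2, a feedback inhibitor of growth hormone signalling, the liver window (chr10:95418709-95418908) lay further from the transcription start site (TSS) than the MEF window (chr10:95417940-95418139). For Ppara, which encodes a nuclear receptor of fatty acid use, the liver window (chr15:85732407-85732606) was 3057 bp and the MEF window (chr15:85735238-85735437) 226 bp upstream of the TSS. The MEF window of Ppara had a GC content of 70.5% and held 2 CGCCCC matches, and its liver window had a GC content of 55.0% and none.
Socs2 liver: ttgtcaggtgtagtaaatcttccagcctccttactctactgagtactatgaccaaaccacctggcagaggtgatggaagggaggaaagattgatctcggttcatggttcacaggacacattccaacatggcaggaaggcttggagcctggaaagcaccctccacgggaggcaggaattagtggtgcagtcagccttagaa
Socs2 MEF: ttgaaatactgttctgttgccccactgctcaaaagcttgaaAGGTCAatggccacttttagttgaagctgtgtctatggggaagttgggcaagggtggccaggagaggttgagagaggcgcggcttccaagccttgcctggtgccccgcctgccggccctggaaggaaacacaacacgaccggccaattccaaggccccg
Ppara liver: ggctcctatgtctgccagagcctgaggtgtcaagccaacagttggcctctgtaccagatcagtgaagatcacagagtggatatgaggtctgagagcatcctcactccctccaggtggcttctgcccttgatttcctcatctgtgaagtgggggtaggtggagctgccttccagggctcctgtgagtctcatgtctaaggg
Ppara MEF: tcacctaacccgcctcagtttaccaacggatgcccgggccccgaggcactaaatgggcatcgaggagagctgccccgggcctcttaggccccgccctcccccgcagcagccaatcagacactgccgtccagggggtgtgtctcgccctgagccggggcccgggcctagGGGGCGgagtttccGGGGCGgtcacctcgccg

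Broad peaks spanned 2000 to 9458 bp with a median of 2462.5 bp, against a median of 495 bp in narrower peaks. Most lay close to the limit, with 768 below 2500 bp, 349 of at least 3000 bp. Together they covered 4.05 of the 33.0 Mb under liver peaks (12.3%). The median summit −log10 p was 19.6 in broad and 12.0 in narrower peaks, and the median area 12589 and 1418. Summits sat anywhere along the interval, at a median of 49.2% of the width (quartiles 30.2 and 69.4%). Broad peaks made up between 2.4% (chromosome 6) and 3.97% (chromosome 19) of the peaks of a chromosome.

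**Figure D1:**
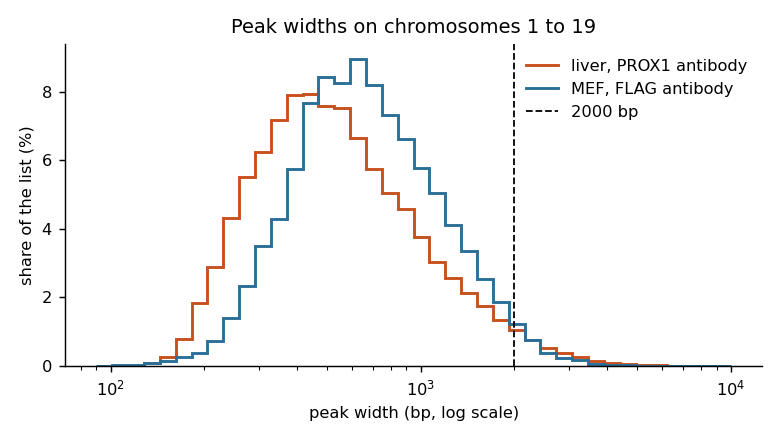
Distribution of peak widths (bp, log scale) on chromosomes 1 to 19 as the share of each list (%), for the liver list and the MEF list, with the 2000 bp limit dashed. The liver list reached 9458 bp and the MEF list 5705 bp, and only 3.00% of liver peaks lay at or beyond the dashed line.

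The limit cut through a continuous tail. The 3 narrowest broad peaks by width and position lay downstream of Ccdc25 (chr14:65889521-65891520, 2000 bp), 375 bp upstream of a TSS of Pparg (chr6:115420584-115422583, 2000 bp), which encodes a nuclear receptor of fat cells, and in an intron of Atp8b1 (chr18:64618215-64620215, 2001 bp), which encodes a canalicular phospholipid flippase. Just outside were 4 peaks of 1999 bp, among them those nearest to Zfp652, Tdo2, the tryptophan-degrading enzyme of liver, and Slc44a3. Their summit −log10 p of 20.1, 18.7 and 17.8 fell within the range of the peaks just inside (15.7, 23.6 and 17.8).

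The 10 widest peaks are listed here, too few to set them apart from other broad peaks by place. The widest of all was an intergenic interval of 9458 bp, 52191 bp downstream of the nearest protein-coding TSS, that of the ubiquitin ligase gene Nedd4l (chr18:65218092-65227549). It met no MEF peak. Next came an interval of 9123 bp with its summit in an intron of Sdc4 (chr2:164431686-164440808), which encodes the heparan sulfate proteoglycan syndecan-4, and an interval of 8241 bp in Slc25a25 (chr2:32417104-32425344), which encodes a mitochondrial carrier. An interval of 7822 bp (chr19:5832799-5840620) had its summit in an exon 6498 bp from the TSS of Neat1, the noncoding RNA of paraspeckles. The other 6 of the 10 widest peaks were nearest to Gse1 (7788 bp), Gm37419 (7616 bp), Osbpl9 (7493 bp), Dgat2 (6876 bp), which encodes an enzyme of triglyceride synthesis, Slc6a13 (6863 bp), a GABA and taurine transporter gene, and Ak3 (6672 bp). Of these 10 summits, 8 were intronic and 3 lay within 1000 bp of any TSS, beside 58.6% and 22.6% over all broad peaks. A MEF peak met 7 of the 10 intervals and held the summit of 2, those of Sdc4 and Gm37419. Over all broad peaks the shares were 29.6% and 10.0%.

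None of the 5 highest summits of broad peaks belonged to the 10 widest, too few peaks to relate height to width. The summit −log10 p of the 10 widest ran from 17.7 (Gm37419) to 25.8 (Slc25a25), beside a median of 19.6 over broad peaks. Narrower peaks reached a −log10 p of 44.3. The highest of the broad peaks, with a −log10 p of 61.7, lay in an exon of the noncoding gene Gm26917 (chr17:39843040-39846373), in an interval with a GC content of 69.0%, the highest of all broad peaks. It stood far above the next broad peak, and how uniquely reads map there was not tested. The second of the broad peaks (34.7, chr1:88277234-88280425) was at the TSS of Trpm8, a cold-sensing ion channel gene, and 28 bp upstream of that of Hjurp, a centromere histone chaperone gene, and a MEF peak of 2846 bp held its summit. The others were in introns, near Nuak2 (32.9, chr1:132315585-132320166), upstream of Lpp (32.0, chr16:24221642-24227585) and upstream of Gm10309 (31.1, chr17:86521972-86526602).

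Broad peaks had more other liver peaks close by than narrower peaks had. With peaks less than 10 kb apart joined into stretches, 597 of the 1484 (40.2%) shared a stretch with another broad peak, in 239 stretches. What share the density of liver peaks alone would give was not computed. Only 3.98% of broad peaks had no other liver peak in their stretch, against 19.2% of narrower peaks. The median number of other peaks in the stretch was 8 for broad and 3 for narrower peaks. Wide peaks and dense stretches both follow from how closely signal is spaced along the genome, so these shares are a description.

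The stretch with most broad peaks lay over Shb, which encodes an adaptor protein of tyrosine kinase signalling (chr4:45443769-45532913). It held 9 broad peaks of 2108 to 5532 bp among 35 liver peaks. MEF peaks met 6 of the 9 but held none of their summits. The stretch over Zmiz1, a transcriptional coactivator gene (chr14:25450889-25566276), held 8 of 2019 to 3690 bp among 50, and MEF peaks met 4 of them, again at no summit. Stretches with 6 each came next, and the longest of these 3 ran from Cyb5a, which encodes cytochrome b5, towards Fbxo15 (chr18:84848598-84923191), with broad peaks of 2183 to 2429 bp and no MEF overlap at any of them.

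The stretches tied at 6 also included one over Mtus1 (chr8:41099555-41157277). Another was that of the fibrinogen genes Fga, Fgb and Fgg (chr3:82999088-83055623), which encode the clotting protein of plasma. It was picked for description and for the map although it was the shortest of them, with 56536 bp. Its broad peaks had widths of 2374, 2684, 2545, 3802, 3999 and 6148 bp from the Fgg side to the Fgb side. The widest (chr3:83049476-83055623, summit −log10 p 29.5) had its summit 997 bp upstream of the Fgb TSS. A single MEF peak met it, and that peak had its summit at the other end, 29 bp upstream of Plrg1, a splicing factor gene that neighbours Fgb. No MEF peak met the other 5.

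**Figure D2:**
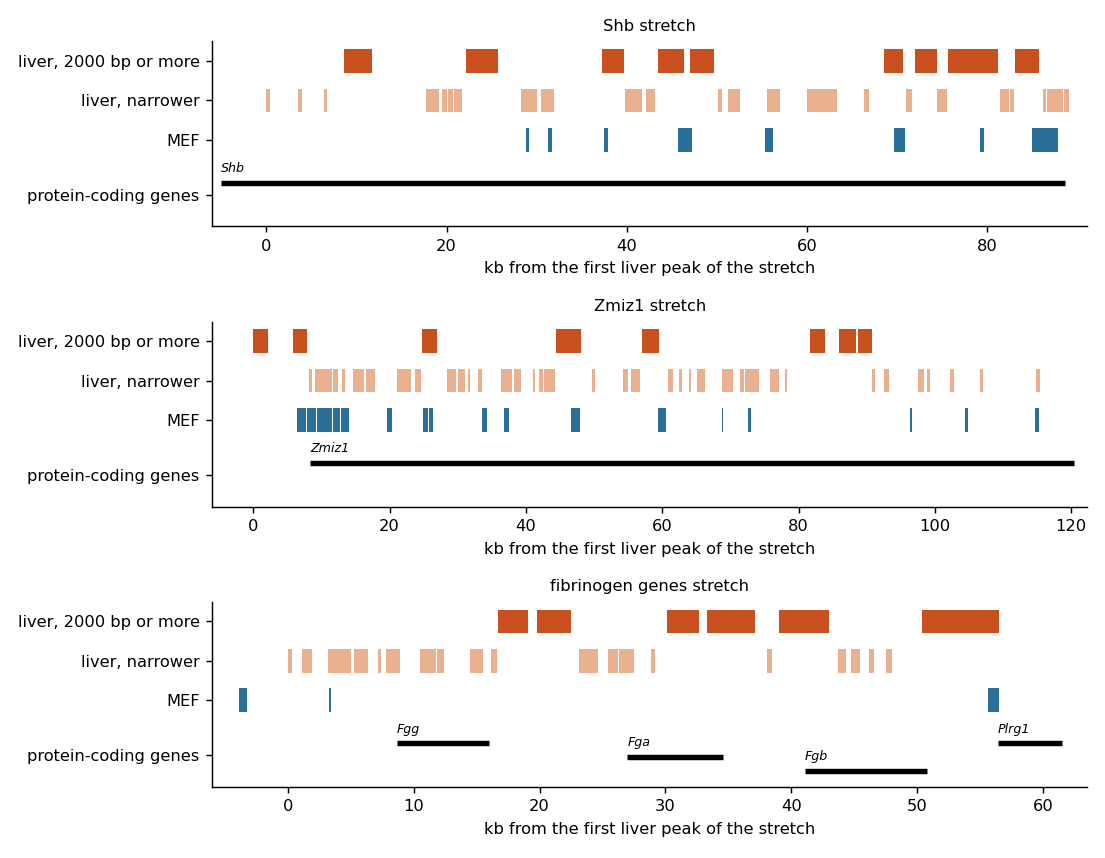
Maps of 3 stretches, in kb from the start of the first liver peak, with liver peaks of 2000 bp or more, narrower liver peaks, MEF peaks and protein-coding genes as bars drawn to scale. Shb holds 9, Zmiz1 8 and the fibrinogen genes 6 broad liver peaks, and the only MEF peak that meets a broad peak of the fibrinogen stretch lies at its Plrg1 end.

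Where broad peaks sit relative to genes was compared with narrower peaks at the summit base, because the whole of a wide interval meets a TSS or another peak more easily by its length alone. Promoter summits, those no more than 1000 bp away from any annotated TSS, were found for 336 of 1484 broad peaks (22.6%, 95% Wilson interval 20.6 to 24.8%) and 9740 of 47943 narrower ones (20.3%, 20.0 to 20.7%), with 20.4% over all liver peaks of these chromosomes. The odds ratio was 1.15 (1.01 to 1.30, two-sided Fisher's exact test p = 0.0308). Intervals here and below cover counting error only. With protein-coding TSSs alone the shares were 14.6 and 14.4% (odds ratio 1.02, 0.88 to 1.18, exact p = 0.822), and promoter summits of other annotated genes, mainly noncoding ones, made up 8.02 and 5.89%. The direction turned with a window of 500 bp (13.2 and 14.3%, odds ratio 0.91) or when only narrower peaks of at least 1000 bp were compared (22.6 and 23.6%, odds ratio 0.95), and it was larger within deciles of summit −log10 p (common odds ratio 1.94).

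Promoter summits of broad peaks lay further from the start site. Their median distance was 388 bp, against 235 bp for narrower promoter summits, and 34.5 and 46.2% lay within 200 bp. From the TSS these intervals reached a median of 1182 bp upstream and 1348 bp downstream. Away from promoters, 39.7% of broad and 30.0% of narrower summits lay more than 1000 and up to 10000 bp from a protein-coding TSS, and 15.4 and 20.9% lay beyond 50000 bp. By annotation, 58.6% of broad summits were intronic, 10.5% exonic and 30.9% intergenic, against 56.7, 10.1 and 33.2% of narrower summits. A TSS lay somewhere inside 497 broad intervals (33.5%), and in 173 of these the summit was more than 1000 bp from any TSS.

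Fewer broad than narrower summits lay inside a MEF peak. A MEF peak held the summit of 149 broad peaks (10.0%, 8.61 to 11.7%) and of 7431 narrower ones (15.5%, 15.2 to 15.8%), with 15.3% over all liver peaks (odds ratio 0.61, 0.51 to 0.72, two-sided Fisher's exact test p = 1.77e-09). Overlap anywhere in the interval grows with its length, and width chose the broad peaks, so this measure cannot compare the groups. Such overlap was found for 440 broad (29.6%) and 8965 narrower peaks (18.7%), 19% over all (odds ratio 1.83, 1.64 to 2.05). Per base, MEF peaks covered 11.8% of broad and 14.8% of narrower liver intervals. Summits of the 2 lists lay within 100 bp of each other for 2.49% of broad and 6.74% of narrower peaks (odds ratio 0.35).

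The shares differed at promoters. Of the 336 broad promoter summits, 72 lay inside a MEF peak (21.4%, 17.4 to 26.1%), against 4618 of 9740 narrower ones (47.4%, 46.4 to 48.4%), an odds ratio of 0.30 (0.23 to 0.39, exact p = 4.03e-22). Away from promoters it was 77 of 1148 (6.71%) and 2813 of 38203 (7.36%), an odds ratio of 0.90 (0.72 to 1.14, exact p = 0.455). The 2 odds ratios differed (Breslow-Day chi-square test, p = 6.58e-10). By width, the share at promoters was 34.5% below 250 bp and 52.6% from 250 to under 750 bp, and then went through 28.4% at 1500 to under 2000 bp to 21.8% at 2000 to under 2500 bp, without a step at the limit, and the share away from promoters stayed between 4.71 and 8.99% in every class.

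**Figure D3:**
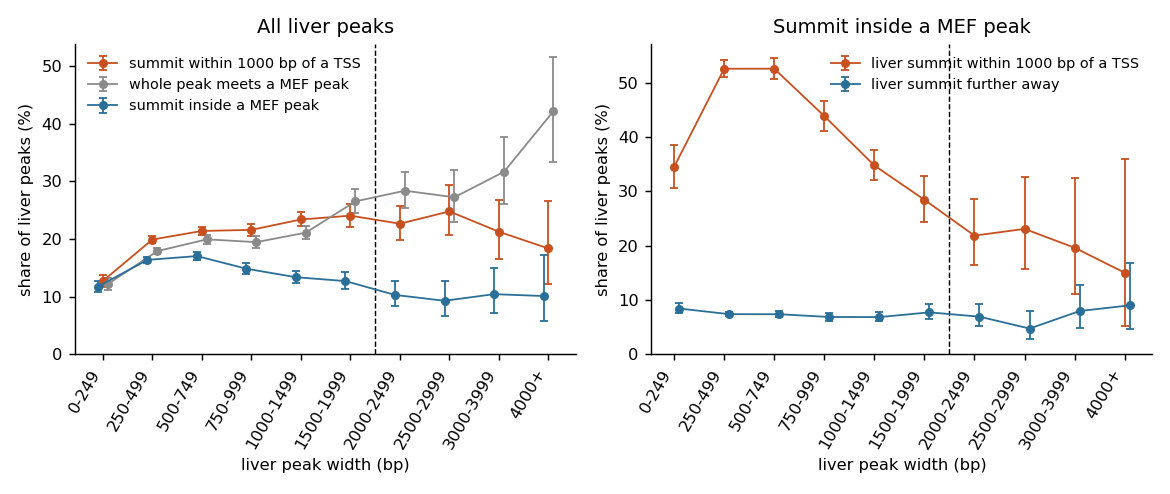
Share of liver peaks (%) by width class (bp), with 95% Wilson intervals as bars and the 2000 bp limit dashed. Left, promoter summits, overlap anywhere with a MEF peak and summits inside a MEF peak. Right, summits inside a MEF peak for promoter summits, which stand at 34.5% below 250 bp, 52.6% from 250 to under 750 bp and 15.0% at 4000 bp and more, and for summits further away, which stay at or below 8.99%.

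Summit height moved with these shares. The share of narrower summits inside a MEF peak was 31.0% in the lowest decile of liver summit −log10 p and 3.66% in the highest, and 981 of the 1484 broad peaks belonged to the highest decile. Within that decile 6.63% of broad and 3.66% of narrower summits lay inside a MEF peak, and in the next decile 11.9 and 5.45%. With deciles of summit height as strata the common odds ratio turned to 2.27 (1.87 to 2.75, Mantel-Haenszel chi-square test p = 8.25e-18), to 1.38 at promoters (1.03 to 1.86, p = 0.0317) and to 2.14 away from them (1.65 to 2.79, p = 5.78e-09). The direction of this comparison therefore depended on whether summit height was taken into account. GC content of the summit window did not turn the direction (common odds ratio over deciles of GC 0.69, 0.58 to 0.83, Mantel-Haenszel chi-square test p = 5.72e-05).

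**Figure D4:**
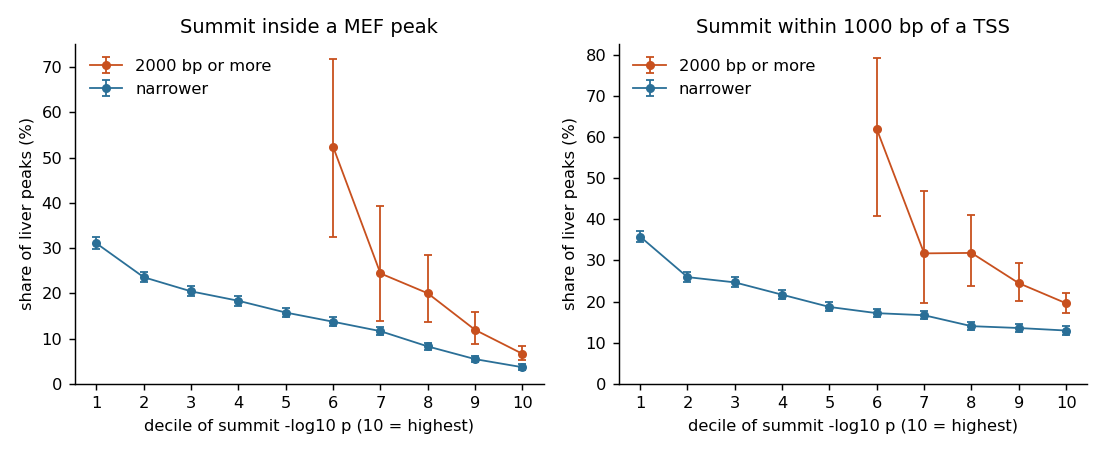
Share of liver peaks (%) with the summit inside a MEF peak (left) and within 1000 bp of a TSS (right), by decile of summit −log10 p over all liver peaks of chromosomes 1 to 19, with 95% Wilson intervals. Deciles with fewer than 20 broad peaks are not drawn for these. In the highest decile, which holds 981 broad peaks, 6.63% of broad and 3.66% of narrower summits lie inside a MEF peak.

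In 291 broad peaks a MEF peak met the interval but not its summit. The summits of the liver peak and of the MEF peak with most overlap were a median of 1227 bp apart. The MEF summit lay within 1000 bp of a TSS in 172 of these (59.1%) and the liver summit in 87 (29.9%). The median GC content of the 200 bp window was 57.5% at the MEF and 48.0% at the liver summit, and the median ratio of observed to expected CpG 0.48 and 0.24. Over all MEF peaks of these chromosomes 37.6% of summits were that close to a TSS, with a median GC content of 52.5% and a CpG ratio of 0.33. Where a MEF peak met a narrower liver peak away from its summit (1534 peaks), the shares were 55.8% for the MEF and 43.7% for the liver summit, so a high share at the MEF summit was not particular to broad peaks. The Ppara pair above is an example, and others were found in Nuak2, where the MEF summit was 119 bp upstream of the TSS and the liver summit 1693 bp downstream of it, and in Cebpa (chr7:35116151-35119402), the gene of a hepatocyte C/EBP factor, where they were 51 and 2002 bp upstream.

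Where a MEF peak held the summit, it was at least 2000 bp wide more often for broad than for narrower liver peaks, though most partners were narrower than that. Of the 149 MEF partners of broad liver peaks, 32 were at least 2000 bp (21.5%, 15.6 to 28.7%), against 700 of the 7431 partners of narrower liver peaks (9.42%, 8.78 to 10.1%), an odds ratio of 2.63 (1.77 to 3.92, two-sided Fisher's exact test p = 1.43e-05). Median partner widths were 1199 and 1006 bp. With a partner anywhere in the interval the odds ratio was 1.47 (1.09 to 1.98), and with a MEF width of 1500 bp 1.61 (1.14 to 2.28). For promoter peaks only it was 2.84 (1.68 to 4.79). No comparison of partner widths took summit height into account. The widest partners were found at Foxo3 (chr10:42272794-42274969, liver 2176 and MEF 5557 bp), a transcription factor gene of insulin signalling, Id3 (chr4:136144907-136148196, 3290 and 4897 bp), which encodes an inhibitor of bHLH factors, and Jun (chr4:95051514-95054065, 2552 and 4848 bp), an immediate-early gene. Next were Dusp6 (chr10:99261454-99263470, 2017 and 4115 bp), which encodes a phosphatase that dampens ERK signalling, and a peak nearest to Irgm1 (chr11:48854870-48857180, 2311 and 3994 bp), an interferon-induced GTPase gene. All of these liver summits had a −log10 p of 18.5 or less, below the median of broad peaks.

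Genes with a broad promoter peak were less often bound at the promoter in the other lists. A broad summit lay within 1000 bp of the TSS of 227 protein-coding genes (1.1% of 20698), and another 5493 had only narrower liver promoter summits. A MEF promoter summit was found for 154 of the 227 (67.8%, 61.5 to 73.6%) and for 84.8% of the 5493 (odds ratio 0.38, 0.28 to 0.51, two-sided Fisher's exact test p = 6.71e-10). A Hep3B promoter summit at the human gene of the same symbol was found for 98 of 195 (50.3%, 43.3 to 57.2%) and for 71.7% of 4840 (odds ratio 0.40, 0.30 to 0.53, exact p = 8.37e-10). Within deciles of the gene's highest promoter summit −log10 p, a comparison added after the values were seen, neither difference was past the threshold (common odds ratios 1.15, p = 0.376, and 0.75, p = 0.0826, Mantel-Haenszel chi-square test).

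In sequence, broad summits differed from narrower ones in 3 of 10 motifs searched on both strands in the 200 bp centred on the summit (Fisher's exact test, Benjamini-Hochberg adjustment over the 10). Summit height differed between broad and narrower peaks, and no motif comparison took it into account. TTGCAA was found under 9.16% of broad and 6.86% of narrower summits (odds ratio 1.37, 1.14 to 1.64, adjusted exact p = 0.00443). CGCCCC was found under 4.65 and 6.83% (odds ratio 0.67, 0.52 to 0.85, adjusted exact p = 0.00443) and CACGTG under 2.09 and 3.33% (odds ratio 0.62, 0.43 to 0.89, adjusted exact p = 0.0207). Neither of these calls held under every alternative. CGCCCC was lost within deciles of GC content (common odds ratio 0.86, Mantel-Haenszel chi-square test, adjusted p = 0.412), and CACGTG was lost in a window of 100 bp (odds ratio 0.64, adjusted exact p = 0.197). The PROX1 consensus with up to 2 mismatches occurred under 4.31 and 4.20% (odds ratio 1.03, 0.80 to 1.32, adjusted exact p = 0.929). AGGTCA was found under 28.0 and 26.0% (odds ratio 1.11, 0.99 to 1.24, adjusted exact p = 0.152). The other motifs did not pass the threshold. ATCGAT was found under 2.16 and 2.04% of broad and narrower summits, and the forkhead letters TGTTTAC under 5.80 and 6.24%. The NF-Y letters CCAAT were found under 26.3 and 26.5%, the AP-1 site TGACTCA under 4.04 and 5.06%, and GTTAAT under 9.91 and 8.63%.

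Split by place, 4 of 20 comparisons passed. At promoters CGCCCC was found under 8.04% of broad and 22.0% of narrower summits (odds ratio 0.31, 0.21 to 0.46, adjusted exact p = 3.95e-10 over 20 tests added after the values were seen), and away from promoters under 3.66 and 2.97% (odds ratio 1.24, adjusted exact p = 0.372). AGGTCA was found under 25.6 and 19.3% of promoter summits (odds ratio 1.44, 1.12 to 1.85, adjusted exact p = 0.0449). TTGCAA passed away from promoters (odds ratio 1.32, adjusted exact p = 0.0488) and not at them (1.69, adjusted exact p = 0.0672), as did CACGTG (0.56, adjusted exact p = 0.0449, and 0.76, adjusted exact p = 0.750), and whether the 2 places differ was not tested. GC content differed beside the promoter results, with a median of 48.8% in the windows of broad and 52.5% in those of narrower promoter summits. Within deciles of GC content the common odds ratio at promoters was 0.60 for CGCCCC (Mantel-Haenszel chi-square test, adjusted p = 0.173) and 1.23 for AGGTCA (adjusted p = 0.427), so neither passed. Over all liver peaks of these chromosomes the 3 motifs were found under 6.93% (TTGCAA), 6.77% (CGCCCC) and 3.29% (CACGTG) of summits.

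The genes nearest to broad peaks included many that hepatocytes are known for. Broad peaks had 1053 nearest protein-coding genes, 5.09% of the 20698 on these chromosomes, and 269 of them were nearest to 2 or more. The lists of genes below were written with results of these data known, long gene neighbourhoods collect more peaks, and no test was made, so counts stand beside that background only. Counted per peak instead of per gene, the difference from the background was smaller. Of the liver peaks nearest to a list, 10.5% were broad for secreted plasma and lipoprotein genes, 8.86% for complement and coagulation, 8.06% for glucose handling and 7.28% for hepatocyte transcription factors, beside 3.00% over all peaks. The share was 6.54% for cytochrome P450 genes, 6.40% for the urea cycle, 5.87% for nuclear receptors, 5.48% for cholesterol and fatty acid synthesis, 5.11% for bile acids, 5.06% for immediate-early genes and 4.08% for clock genes. Cholangiocyte genes (2.30%, 2 of 87 peaks) and factors of other fates (1.59%, 2 of 126 peaks) lay below it. These counts, each from 1 gene, are too small to set the 2 lists apart from the share over all peaks. For comparison, the 992 MEF peaks of at least 2000 bp on these chromosomes had 938 nearest genes (4.53%). Shared between these were 137 genes, 13.0% of the liver and 14.6% of the MEF genes.

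Of 20 hepatocyte transcription factor genes, 15 (75%) were nearest to a broad liver peak and 2 to a MEF peak of at least 2000 bp. Onecut1 had a broad peak of 4961 bp (chr9:74864084-74869044) with its summit 3662 bp downstream of a TSS. Prox1 itself was nearest to 4 broad peaks of 2145 to 3644 bp, none of which met a MEF peak. At promoters, Klf15 had a broad peak of 3282 bp (chr6:90464438-90467719), Foxa2, a pioneer factor gene, of 2843 bp (chr2:148045119-148047961) and Nr5a2 of 2543 bp (chr1:136958695-136961237). Of these only the Foxa2 interval met a MEF peak, and not at its summit.

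Nuclear receptor genes gave 10 of 25 (40.0%), 7 of them with a broad promoter peak. Rxra, the common partner of other receptors, had a broad promoter peak of 2976 bp (chr2:27674282-27677257) whose summit a MEF peak held. Thrb, a thyroid hormone receptor gene, had one of 2594 bp, and Nr1i2, which encodes a sensor of foreign compounds, one of 2520 bp without MEF overlap. Nr1h4, which encodes the bile acid receptor, was nearest to 4 broad peaks, 1 at a promoter (chr10:89505651-89507796, 2146 bp), and Nr2f2 had a promoter peak of 2117 bp held by a MEF peak at the summit. In bile acid genes, 7 of 18 were counted (38.9%). The promoter peaks were at Slc27a5 (3094 bp), which encodes the ligase that conjugates bile acids, Abcb11 (2699 bp), the bile salt export pump gene, and Cyp27a1 (2171 bp), a sterol hydroxylase gene. The Slc27a5 summit lay 912 bp upstream of the TSS of that gene, and 10 bp upstream of an annotated TSS of Trim28. No gene of this list was nearest to a MEF peak of at least 2000 bp.

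Secreted plasma and lipoprotein genes gave 17 of 31 (54.8%), mostly from outside the promoter window. Apoc1 had the widest (chr7:19690818-19696115, 5298 bp, summit 1817 bp upstream), and Apoa1, the main HDL protein gene, followed with 4670 bp (chr9:46222882-46227551, 4381 bp upstream). Ttr, the transthyretin gene, was nearest to 5 broad peaks, 1 of them at its promoter (chr18:20662319-20665698, 3380 bp), and Lipc, the hepatic lipase gene, had a promoter peak of 2823 bp. Complement and coagulation genes gave 8 of 26 (30.8%), with promoter peaks at Fgb, described above, C9 (3402 bp), Proc (2879 bp), the protein C gene, and F11 (2352 bp). None of these 2 lists' genes was nearest to a MEF peak of at least 2000 bp.

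Genes of glucose handling and the insulin response gave 16 of 24 (66.7%), and 3 of the 16 were also nearest to a wide MEF peak. Pck1, which encodes an enzyme of glucose production, had a promoter peak of 2458 bp (chr2:173151814-173154271). Pcx, the pyruvate carboxylase gene, had promoter peaks of 2445 and 2152 bp, and a MEF peak held the summit of the wider. Slc2a2, the glucose transporter gene of hepatocytes, had one of 2530 bp. Ppp1r3b and Ppp1r3c, which encode subunits that direct a phosphatase to glycogen, were nearest to 4 broad peaks each. Those summits lay 29428 to 163936 bp from the Ppp1r3b TSS and 3187 to 72466 bp from that of Ppp1r3c. In cholesterol and fatty acid synthesis 8 of 20 were counted (40.0%), with promoter peaks at Elovl6 (2633 bp), a fatty acid elongase gene, and Pnpla3 (2446 bp), a lipid droplet gene. A MEF peak held the summit at both.

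The urea cycle and amino acid list gave 8 of 18 (44.4%), with promoter peaks at Asl (2593 bp), which encodes argininosuccinate lyase, and Mat1a (2232 bp). Genes of cytochrome P450 enzymes and conjugation gave 6 of 16 (37.5%), with promoter peaks at Cyp3a13 (chr5:137920209-137923306, 3098 bp) and Ugt2b1 (2123 bp). No gene of these lists was nearest to a wide MEF peak.

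In the other lists, wide MEF peaks were as frequent or more frequent. Clock genes gave 5 of 19 in liver (26.3%) and 11 in MEFs (57.9%), and 4 genes were on both counts. Hlf, a PAR bZIP factor gene, had a promoter peak of 2596 bp in liver and no MEF overlap, while at Per1 (chr11:69094336-69096550, 2215 bp) a MEF peak of 2056 bp held the summit. Immediate-early and feedback genes gave 17 of 38 in liver (44.7%) and 24 in MEFs (63.2%), with 13 on both counts. Their broad promoter peaks were at Cish (chr9:107295500-107299450, 3951 bp), a cytokine feedback gene, Myc (chr15:61984302-61987403, 3102 bp) and Dusp6, and MEF peaks held the last 2 summits. Transcription factor genes of other fates gave 1 of 24 in liver, Pparg, and 5 in MEFs.

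**Figure D5:**
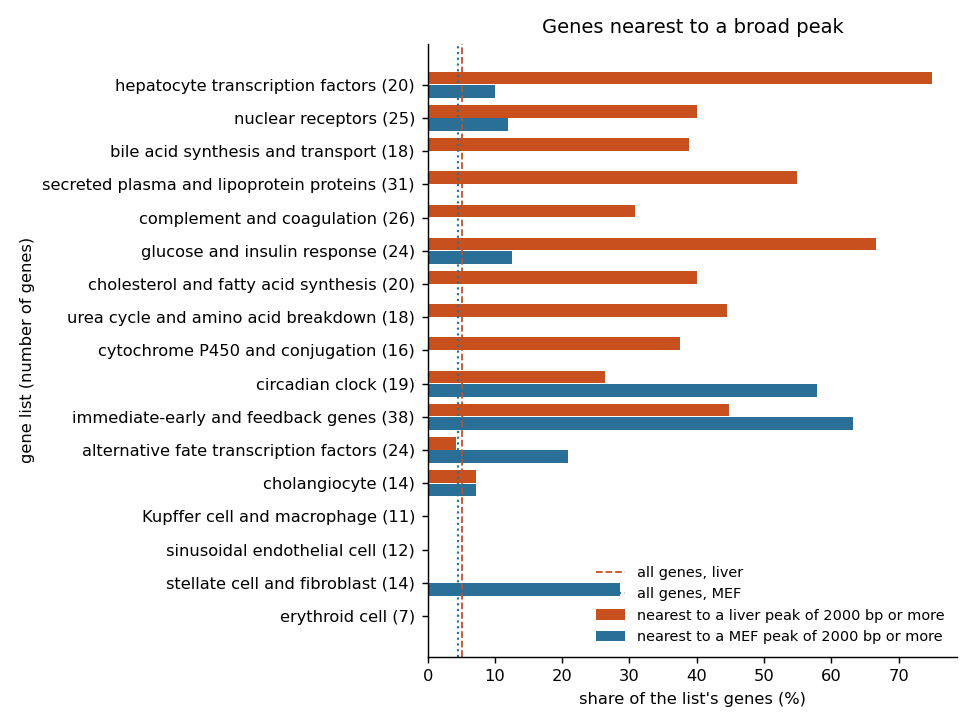
Share of each list's genes (%) that were nearest to a liver peak or a MEF peak of at least 2000 bp, with the number of genes in brackets and the shares of all 20698 genes as vertical lines (5.09% liver, 4.53% MEF). Hepatocyte transcription factors stand at 75% in liver and 10.0% in MEFs, and immediate-early genes at 44.7 and 63.2%.

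Markers of the other cells of liver were few among these genes, in lists so small that the share over all genes (5.09%) would itself give few. None of 11 Kupffer cell and macrophage genes, 12 sinusoidal endothelial genes, 14 stellate cell and fibroblast genes or 7 erythroid genes was nearest to a broad liver peak, and 1 of 14 cholangiocyte genes was. Liver peaks of any width were few at some of these genes, with 1 nearest to the macrophage, 1 to the erythroid, 12 to the stellate and 34 to the endothelial list. In MEFs, 4 of the 14 stellate and fibroblast genes were nearest to a peak of at least 2000 bp. Across all 17 lists, 114 of 327 genes were nearest to a broad liver peak, and 192 of the 1484 broad peaks (12.9%) had such a gene as their nearest. A MEF peak held the summit of 19 of these 192, beside 149 of all 1484 broad peaks (10.0%).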

How the data were processed

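CUT&RUN was performed in 22 samples of 6 groups, taken from the labels. Per their methods, the authors trimmed reads with Trim Galore 0.6.6, aligned them to mm10 or hg38 with Bowtie2 2.4.2 and called consensus peaks of each antibody group with Genrich 0.6.1. The authors describe sites as found relative to IgG, but the stated command names no control. In the deposited lists the score is a scaled area per base with an upper limit, as checked on the files. The deposited signal is the peak area, and the deposited −log10 values are the summit's p and q. None is normalized between lists. Other deposited columns give start, end and summit offset.

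Members and gene lists were chosen with earlier results of these data known. TSSs came from GENCODE M21 (mouse) and v44 (human). Summit placement and MEF overlap were compared with narrower liver peaks by two-sided Fisher's exact tests, strata by the Mantel-Haenszel estimate (SciPy 1.17.1, statsmodels 0.14.6, Python 3.11.15), after tests on simulated data. The consensus was written from general knowledge. All human genes were matched by symbol. Genes were named by a rule covering the 10 widest peaks, the 3 on each side of the limit, the 5 highest summits, the 5 widest MEF partners, the 3 stretches with most broad peaks, and list genes with a broad promoter peak. List genes whose broad peak had its summit further than 1000 bp from a protein-coding TSS were named beyond that rule after their values were seen. So were the stretches of Mtus1 and of the fibrinogen genes, tied for the last place of the rule. Alternatives covered widths, windows, overlap definitions, q limits and strata. IgG samples entered no comparison. Some withheld items are not reported here.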

Additional observations from a re-analysis of the deposited data

Results flagged for a closer look

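Chromosome X was outside the chromosomes compared, and it held 10 further liver peaks of at least 2000 bp, a signal outside the comparisons of the report. Among their nearest genes were Atp6ap2 (2730 bp), Maob (2126 bp, 170 bp upstream of a TSS), Lamp2 (2089 bp), Ripply1 (2388 bp), Cldn2 (3632 bp), Tsc22d3 (3027, 2594 and 2539 bp) and Nhs (2680 bp). Tsc22d3, a glucocorticoid-induced gene, was nearest to 3 of the 10. Over all 10 peaks the summit −log10 p lay between 17.5 and 24.2.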

How the results depend on the processing

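Every value here is an odds ratio, broad against narrower liver peaks, unless stated otherwise, and the cause of each change was not tested. Summits within 1000 bp of a TSS (1.15) changed direction for peaks from 3000 bp (0.997, exact p = 1), against narrower peaks of at least 1000 bp (0.949) and with a 500 bp window (0.911). They were no longer past the threshold without summits in masked repeats (1.12), with the widest peak of each stretch (1.07) or with protein-coding TSSs (1.02). Summits inside MEF peaks (0.608) changed direction above the median summit −log10 p (1.14), within its deciles (2.27), for any overlap (1.83) and for overlap of 50% of the shorter peak (1.79). At promoters (0.302) the direction changed within these deciles (1.38). Away from promoters (0.905) it changed for any overlap (3.04), within deciles (2.14) and beyond 10000 bp from a TSS (1.02), and summits within 100 bp of each other passed the threshold (0.441). Overlap of whole intervals grows with their width, so the changes under overlap alternatives cannot compare broad with narrower peaks. Within deciles of promoter summit height the MEF gene comparison changed direction (1.15) and the Hep3B one was no longer past the threshold (0.755). Among single motifs, the PROX1 consensus changed direction with a 100 bp window (0.917) and away from promoters (0.968), TGTTTAC at promoters (1.54, and 1.2 within deciles of GC content), CCAAT (1.02) and CGCCCC (1.24) away from promoters, and ATCGAT at promoters within deciles of GC content (0.973). The count of 3 motifs past the threshold was 2 with a 100 bp window, without CACGTG, and 2 within deciles of GC content, without CGCCCC. Comparisons by place for motifs, by GC content or distance for MEF overlap at and away from promoters, and by summit height for genes were chosen after seeing the data.

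No paired analysis was possible because each deposited list pools its replicates, and for the same reason leaving out a replicate was not run. Depth per sample is unknown, the liver and MEF lists start at different areas, and no interval covers variation between animals or cultures.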
